A study of Saccharomyces cerevisiae with 44 samples.

Results

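The comparison described here sets the 4 BrdU-IP libraries of the Dbf4 zinc-finger mutants dbf4-Zn*1 and dbf4-Zn*2 against the 2 BrdU-IP libraries of ctf19∆ fkh1∆ fkh2-dsm, 6 of the 20 BrdU-IP libraries in a series of 44 samples. Libraries were chosen by genotype and library type alone. In QBU, cells incorporate the thymidine analogue BrdU into new DNA, the labelled DNA is recovered with an antibody (IP) and sequenced beside unselected DNA of the same culture (Total). The signal of a region is its count in 50-bp bins divided by the mean of the same library, so 1 is the genome mean. Each strain had 2 IP and 2 Total libraries, and the sources used here do not say whether the replicates came from separate cultures, so p-values measure only the spread between these libraries, which may be technical.

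All strains are Saccharomyces cerevisiae haploids of the W303 background with bar1∆ and a BrdU-Inc cassette. The strains of the groups compared were arrested in G1 with α-factor at 23 °C, released into 200 mM hydroxyurea with 400 µg/mL BrdU and harvested after 60 min. The dbf4∆C strain, which enters here only through the peak calling, the shared estimate of spread and a check of missing sequence, was harvested later. dbf4-Zn*1 and dbf4-Zn*2 are unmarked point-mutant alleles of DBF4 that change metal-binding residues of the C-terminal zinc finger, made in the WT strain that carries BrdU-Inc at leu2. ctf19∆ fkh1∆ fkh2-dsm carries wild-type DBF4, deletions of CTF19 and FKH1, a dimerization-deficient FKH2 and BrdU-Inc at ura3, and came from a cross. Genotype, cassette position and strain lineage therefore changed together in this comparison and cannot be told apart.

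Dbf4 is the regulatory subunit of the Cdc7 kinase, which phosphorylates the Mcm2-7 helicase loaded at origins and so permits them to fire. Dbf4 is limiting for early firing, and in budding yeast it is brought to origins near centromeres by the kinetochore protein Ctf19 and to another group of early origins by the forkhead factors Fkh1 and Fkh2. The comparison asks how a Dbf4 with an altered zinc finger compares with an intact Dbf4 in cells that lack both routes of recruitment. Hydroxyurea lowers nucleotide pools, which restricts labelling to the surroundings of origins that fire early.

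The counts summed over bins were 3392505 and 1568172 in the dbf4-Zn*1 IP libraries, 6179788 and 1501580 in dbf4-Zn*2, and 1102102 and 615918 in ctf19∆ fkh1∆ fkh2-dsm, the shallower strain in both library types. A read is counted in every bin it overlaps, so these sums exceed the number of reads. The genotype was visible in the counts. FKH1 and CTF19 had 0 counts in all IP and Total libraries of ctf19∆ fkh1∆ fkh2-dsm, which in its shallower Total library allows up to 2.06% and 2.75% of the library mean for counting error. In the Total libraries of dbf4-Zn* the same genes had between 653 and 1204 counts and between 515 and 950 counts.

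Besides these genes, 2 stretches of 150 bp were present in one group only. One lies near the end of chromosome VII, from 1079751, and was missing in dbf4-Zn*. On chromosome III, 150 bp at positions 39451 to 39600 had 0 counts in the IP and Total libraries of ctf19∆ fkh1∆ fkh2-dsm, and 127 to 329 counts in the 4 Total libraries of dbf4-Zn*. Both Total libraries of WT held 222 and 279 counts there. In fkh1∆, ctf19∆ and fkh1∆ fkh2-dsm, which also carry BrdU-Inc at ura3, and in dbf4∆C, for which the study describes strains with either cassette position, the Total was at most 11.1% of the library mean. The stretch lies inside the peak that differs most in favour of dbf4-Zn*, and its part in that difference was not tested, so counts are also given without chromosome III.

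Origins were taken as 163 peaks of the mean profile of all 20 IP libraries, each in a window of 1 kb. Sites with signal in few strains can be missing from this list, which limits the counts of origins below. Of the 163, 32 are the nearest to a centromere on either side (CEN-proximal). A further 78 are Fkh-dependent, meaning that their signal was at least 2-fold lower in fkh1∆ fkh2-dsm than in WT with an adjusted p under 0.05, a definition that uses none of the 6 libraries compared beyond the shared peak positions and the shared estimate of spread. It is not independent of the comparison, however. The triple mutant carries the same fkh1∆ and fkh2-dsm alleles and cassette position, and dbf4-Zn* has the cassette position of WT. A low signal of this class in the triple mutant is therefore in part built into the choice. The remaining 53 are called other origins. They are what both definitions leave, not a class shown to be independent of Ctf19 or of the Fkh factors. Origins low in fkh1∆ fkh2-dsm were taken out of them, and some entered the peak list only through strains in which they were high. A signal of this class that is kept or raised in the triple mutant is therefore also in part built into the choice. Positions are those of the deposited bins, whose genome build is not named in the files. Gene names come from the RefSeq table of the R64 assembly and only place an origin beside its nearest gene.

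On the scale of the library mean, the 2 groups differed in signal at most of the 163 origins. By edgeR's quasi-likelihood test with Benjamini-Hochberg adjustment over 163 origins, 84 origins (51.5%) were higher in dbf4-Zn* and 59 (36.2%) lower, and 20 did not pass the test. With library sizes rescaled by TMM over all windows the counts were 102 and 35, so the division between directions depends on the scale, which is treated with the windows below. With the library sizes of the matched Total libraries 0 origins were higher and 15 lower. The 4 dbf4-Zn* libraries all lay above both triple-mutant libraries at 88 origins and all below them at 59. Without chromosome III, the test called 80 origins higher and 57 lower of 157. Across the 163 origins, log2 signal correlated with r = 0.99 between dbf4-Zn* libraries (median of 6 pairs), 0.96 between the triple-mutant libraries, and 0.16 between the groups (median of 8 pairs). Against WT the median r was 0.68 for dbf4-Zn* (8 pairs) and 0.09 for the triple mutant (4 pairs). These correlations are across origins, which are not independent, and pairs share libraries.

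**Figure D1:**
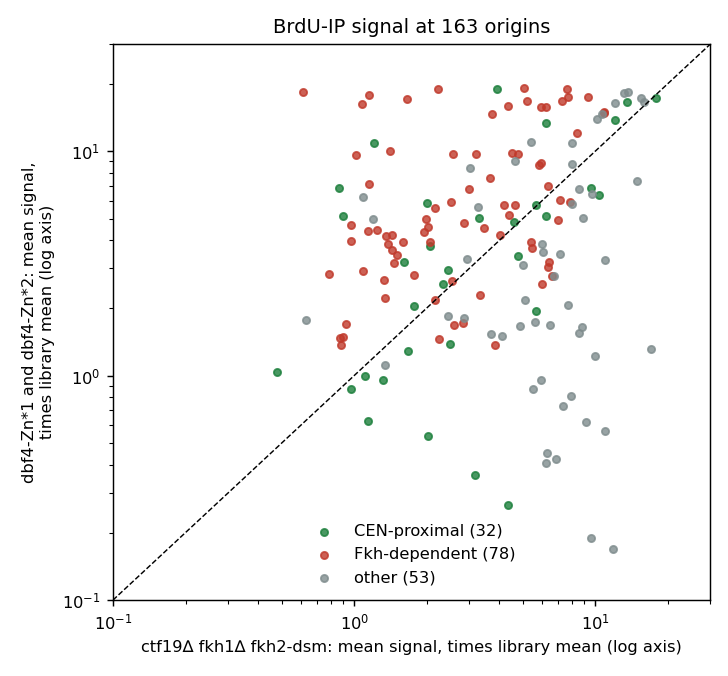
Mean BrdU-IP signal at 163 origins in ctf19∆ fkh1∆ fkh2-dsm (2 libraries, x axis) and dbf4-Zn* (4 libraries, y axis), both as multiples of the library mean on log axes, coloured by origin class. Most Fkh-dependent origins (59 of 78 called higher in dbf4-Zn*) lie above the dashed line of equal signal and most other origins (35 of 53 called lower) below it.

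The pattern followed the origin classes, and the way these were defined favours that order for Fkh-dependent and other origins. Among the 78 Fkh-dependent origins, 59 were higher in dbf4-Zn* and 13 lower, with a median log2 fold change of 1.07. Among the 53 other origins the order was the opposite, with 13 higher, 35 lower and a median of -0.82. The 32 CEN-proximal origins were divided, with 12 higher, 11 lower and a median of 0.03. The median over all 163 origins was 0.31. Under TMM the CEN-proximal division became 20 higher and 4 lower, the Fkh-dependent one 65 and 5, and the other origins 17 and 26, so the balance of CEN-proximal origins holds on the scale of the library mean and not under TMM. The medians of Fkh-dependent and other origins kept their signs under TMM (1.70 and -0.19) and under DESeq2's size factors (0.90 and -0.99). With Total library sizes they were 0.24 and -1.66, with 0 Fkh-dependent origins called.

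Class medians showed how far each group was from the strains with single defects. The median Fkh-dependent origin had a signal of 4.91, 4.90, 5.23 and 4.89 times the library mean in the dbf4-Zn*1 and dbf4-Zn*2 libraries, and 2.83 and 2.53 in ctf19∆ fkh1∆ fkh2-dsm. The medians of strain means were 12.3 in WT, 7.25 in ctf19∆ and 2.26 in fkh1∆ fkh2-dsm. The median CEN-proximal origin had 3.44, 3.56, 3.87 and 3.61 in dbf4-Zn* and 2.60 and 2.33 in the triple mutant, against 15.6 in WT, 2.09 in ctf19∆ and 14.4 in fkh1∆ fkh2-dsm. Both groups were thus far under WT at the CEN-proximal class. The class median was higher in dbf4-Zn* on this scale, but the median log2 fold change over the same origins was 0.03. The median other origin had 2.78, 2.77, 2.97 and 2.62 in dbf4-Zn* and 7.19 and 7.17 in the triple mutant, close to its 7.01 in WT.

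Each group's own difference from WT came from the same fit as the direct comparison. At each origin the direct log2 fold change equals the value of dbf4-Zn* against WT minus that of the triple mutant. An agreement in order is therefore built in and is no second result. The values are given side by side only to show where each group stood relative to WT. The median log2 fold change against WT at CEN-proximal origins was -1.68 in dbf4-Zn* and -1.74 in the triple mutant. At Fkh-dependent origins it was -0.76 and -1.86, and at other origins -1.18 and -0.08.

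**Figure D2:**
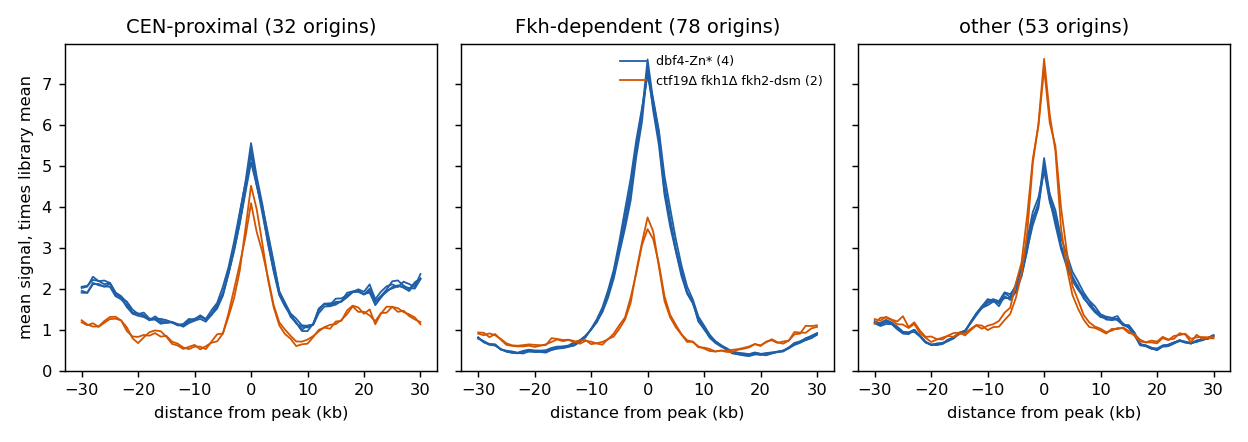
Mean BrdU-IP signal (times the library mean) in 1-kb steps within 30 kb of the origin peaks of each class, with 1 line per library, blue for dbf4-Zn* and orange for ctf19∆ fkh1∆ fkh2-dsm. At the peak of Fkh-dependent origins the means were 7.38 and 3.60, at other origins 5.02 and 7.5, and at CEN-proximal origins 5.33 and 4.31.

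To remove the scale of each library, the mean log2(signal + 0.1) of a class was taken relative to all other origins of the same library. For Fkh-dependent origins this shift was 0.90, 0.88, 0.93 and 0.89 in the dbf4-Zn* libraries and -0.70 and -0.78 in ctf19∆ fkh1∆ fkh2-dsm. The means differed by 1.64 on the log2 scale, and the groups did not overlap. The exact two-sided permutation test over 6 libraries gave p = 0.067, the smallest value that 15 splits allow, so this design cannot reach 0.05 (adjusted p = 0.086 over 9 such measures). For CEN-proximal origins the shift was -0.39, -0.40, -0.46 and -0.39 in dbf4-Zn* and -0.40 and -0.39 in the triple mutant (exact permutation p = 0.80). Their difference of -0.02 was smaller than the SD of 0.036 among the 4 dbf4-Zn* libraries.

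The ratio of the median CEN-proximal to the median Fkh-dependent signal was 0.70, 0.73, 0.74 and 0.74 in dbf4-Zn* and 0.92 and 0.92 in the triple mutant (exact permutation p = 0.067). The groups did not overlap. After division by Total signal the means were 0.98 and 0.96, and with a Fkh-dependent limit of -0.5 in log2 units they were 0.71 and 0.64, so the order of this ratio depends on those choices.

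Fkh-dependent origins hold 8 of the 10 named origins with the highest log2 fold change in dbf4-Zn*. Named origins were called, with the 4 dbf4-Zn* libraries all on one side of both triple-mutant libraries. On chromosome IX, the origin at 411951 beside DCG1 had signals of 18.1, 19.0, 17.5 and 16.6 in dbf4-Zn* and 1.31 and 0.98 in the triple mutant, where it was near the genome mean. Its log2 fold change was 3.91 (SE 0.13, edgeR adjusted p = 1.8e-26), and WT had 21.1. The origin at 1053351 of chromosome XV, beside RDR1, which encodes a transcriptional repressor, had 15.7, 16.3, 16.1 and 16.8 in dbf4-Zn* and 1.23 and 0.92 in the triple mutant. Its log2 fold change of 3.88 (SE 0.17) came with a WT mean of 18.0 beside 16.2 in dbf4-Zn*. At the chromosome XIII origin at 815151, within the CAAX protease gene RCE1, the dbf4-Zn* libraries had 17.5, 17.4, 15.9 and 17.6 and the triple mutant 1.77 and 1.53, a log2 fold change of 3.35 (SE 0.15).

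Further Fkh-dependent origins among the 10 had signals between those of the triple mutant and WT in dbf4-Zn*. The chromosome XI origin at 55851, beside the kinase gene TOR2, had 10.0, 9.95, 9.69 and 8.84 in dbf4-Zn*, 0.93 and 1.10 in the triple mutant and 16.9 in WT. The chromosome XIII origin at 31751 had a mean of 10.0 ± 0.21 (SD, n = 4) against 1.05 and 1.76, with 15.5 in WT. That on chromosome XII at 91851, beside the disaggregase gene HSP104, had 7.13 ± 0.51 against 1.16 and 1.14, with 13.3 in WT. The chromosome VI origin at 199601 had the strongest dbf4-Zn* signal of the 10, with 18.2, 20.7, 17.0 and 19.8 against 2.22 and 2.23 in the triple mutant and 21.8 in WT. In fkh1∆ fkh2-dsm these 7 origins had mean signals from 0.37 (chromosome XV) to 3.48 (chromosome VI). That low level is what put them in the class.

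The largest log2 fold change belonged to the chromosome III origin at 39701, with 17.8, 18.8, 18.3 and 18.2 in dbf4-Zn* and 0.62 and 0.61 in the triple mutant (4.88, SE 0.18). This is the peak that spans the 150 bp without counts. Total signal in its window was 1.70 in dbf4-Zn* and 0.62 in ctf19∆ fkh1∆ fkh2-dsm, and its IP signal was 0.44 in ctf19∆ and 0.25 in fkh1∆ fkh2-dsm, which lack the same counts. Its place in the Fkh-dependent class rests on the latter.

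**Figure D3:**
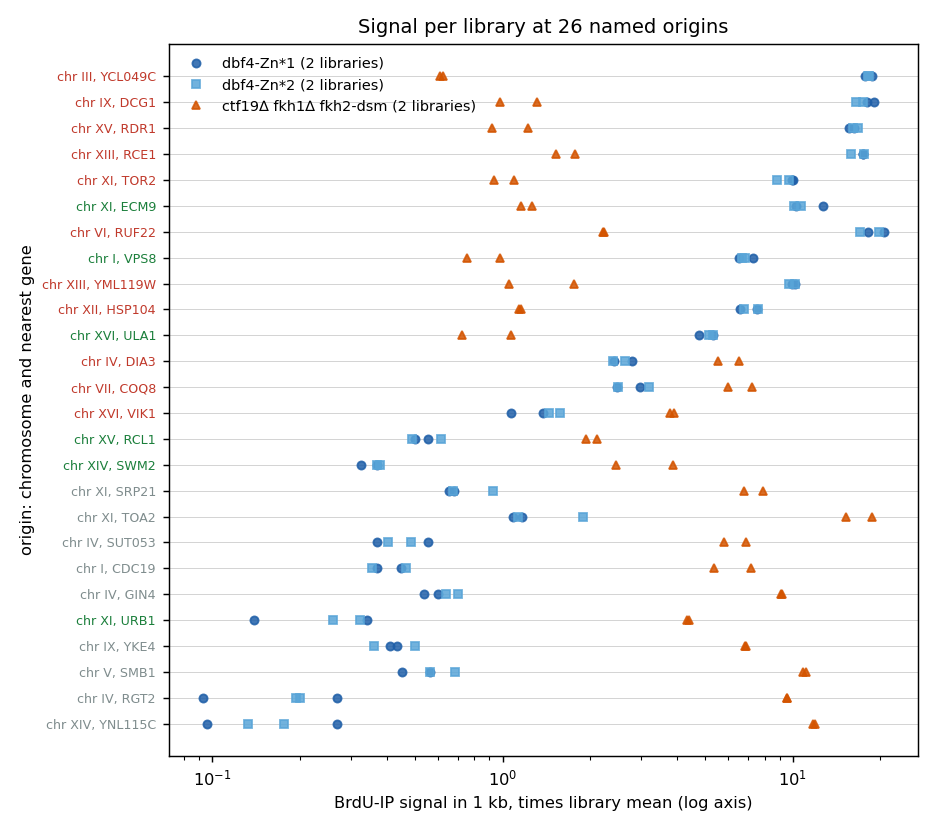
BrdU-IP signal per library (times the library mean, log axis) at the 26 named origins, ordered by log2 fold change, with dark circles for dbf4-Zn*1, light squares for dbf4-Zn*2 and orange triangles for ctf19∆ fkh1∆ fkh2-dsm. Label colours mark CEN-proximal (green), Fkh-dependent (red) and other origins (grey). The named origins were chosen from those called, most of them also for groups that do not overlap, so the separation seen is part of the choice.

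The Fkh-dependent class was not uniform. Its 3 lowest members had a log2 fold change of -1.51 on chromosome XVI at 72651 within VIK1, -1.27 on chromosome VII at 285901 within COQ8, and -1.23 on chromosome IV at 407951 beside DIA3. At the first of these, dbf4-Zn* had 1.07, 1.38, 1.45 and 1.58 and the triple mutant 3.78 and 3.88, with 5.54 in WT. At the second, 2.47, 2.98, 2.50 and 3.18 stood against 7.26 and 6.00, with 12.4 in WT. Both groups thus lay under WT, dbf4-Zn* further than the triple mutant.

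Origins within 1 kb of a chromosome end form a set of 11, all of them Fkh-dependent, all called higher in dbf4-Zn*, with log2 fold changes from 0.91 to 1.95. Their median signal was 4.21 in dbf4-Zn*, 1.44 in the triple mutant and 6.82 in WT. Chromosome ends carry near-identical repeats between which reads may be split, so these 11 are not independent sites. Without them the Fkh-dependent class had 48 origins higher and 13 lower of 67, with a median of 0.83. Without chromosome III as well it had 46 and 12 of 64.

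Of the 59 origins lower in dbf4-Zn*, 35 were other origins. The 10 lowest named origins hold 9 of these 35, and on the scale of the library mean the 2 largest differences exceeded in size those of all Fkh-dependent origins. Under TMM these 2 were -5.63 and -5.12, against 5.51 at the Fkh-dependent origin at 39701 of chromosome III. On chromosome XIV, the origin at 411351 within YNL115C had 0.10, 0.27, 0.13 and 0.18 in dbf4-Zn* and 11.7 and 11.9 in the triple mutant. Its log2 fold change was -6.28 (SE 0.25, edgeR adjusted p = 1.9e-24). WT had 0.39 and ctf19∆ 0.64, while fkh1∆ fkh2-dsm had 9.13, so the peak was present in both strains with fkh1∆ fkh2-dsm and under the genome mean in WT, ctf19∆ and dbf4-Zn*. Total signal at this window was 0.95 in dbf4-Zn* and 1.31 in the triple mutant.

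The chromosome IV origin at 213001, beside the glucose sensor gene RGT2, had 0.09, 0.27, 0.19 and 0.20 in dbf4-Zn* and 9.52 and 9.58 in the triple mutant (-5.77, SE 0.21). WT had 0.98 and fkh1∆ fkh2-dsm 7.21. The chromosome V origin at 212551, beside SMB1, which encodes a core protein of spliceosomal snRNPs, had 0.45, 0.56, 0.69 and 0.56 against 10.8 and 11.1 (-4.29, SE 0.17), with 1.60 in WT and 8.08 in fkh1∆ fkh2-dsm. Such origins had little signal in WT and dbf4-Zn* and a strong peak in the triple mutant. Peaks were called on the mean of all strains, the triple mutant included, so a site low in WT enters the list only through strains in which it is high, and these values are a description. Further origins with this pattern are the chromosome IV origin at 1462451 within the bud-neck kinase gene GIN4 (0.62 and 9.15, group means) and the chromosome I origin at 70901 near the pyruvate kinase gene CDC19 (0.41 and 6.27).

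Further origins of this class had a peak in WT that was weak in dbf4-Zn*. The chromosome XI origin at 330051, beside TOA2, which encodes a subunit of the general factor TFIIA, had 1.16, 1.09, 1.13 and 1.89 in dbf4-Zn* and 18.8 and 15.2 in the triple mutant (-3.74, SE 0.15). WT had 11.1, ctf19∆ 5.23 and fkh1∆ fkh2-dsm 16.2. The chromosome IV origin at 505651 had 0.55, 0.37, 0.48 and 0.40 against 6.88 and 5.78 (-3.77, SE 0.18), with 5.6 in WT. The chromosome IX origin at 310701, beside the zinc transporter gene YKE4, had 0.41, 0.43, 0.36 and 0.50 against 6.86 and 6.92 (-4.06, SE 0.18), with 2.79 in WT. Among the 35 other origins called lower, the median WT signal was 5.40, whereas it was 14.9 among the 13 called higher.

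CEN-proximal origins split by site. Their log2 fold changes ranged from -4.0 to 3.16. On chromosome XI the origins on the 2 sides of the centromere lay at the 2 ends of this range. The origin at 448051, about 8.08 kb from the centromere and beside ECM9, had 10.3, 12.7, 10.1 and 10.6 in dbf4-Zn* and 1.26 and 1.16 in the triple mutant (3.16, SE 0.13). The origin at 417101, about 22.9 kb away on the other side and beside the ribosome biogenesis gene URB1, had 0.34, 0.14, 0.26 and 0.32 in dbf4-Zn* and 4.38 and 4.31 in the triple mutant (-4.0, SE 0.23). WT had 21.2 at the first and 3.70 at the second, and ctf19∆ had 3.20 and 0.73.

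At 2 more CEN-proximal origins the triple mutant had lost nearly all signal and dbf4-Zn* had not. That on chromosome I at 147251, within VPS8, which serves vacuolar protein sorting, had 7.28, 6.54, 6.85 and 6.69 in dbf4-Zn* and 0.76 and 0.98 in the triple mutant (3.02, SE 0.17). WT had 14.2 and ctf19∆ 0.42 there. That on chromosome XVI at 553401, beside ULA1, which serves Rub1 conjugation, had 5.30, 4.76, 5.31 and 5.16 against 1.07 and 0.73 (2.46, SE 0.20), with 11.0 in WT and 0.62 in ctf19∆. Both sites were named for the size of their fold change, so the separation of the groups there is part of the choice.

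At other centromeres dbf4-Zn* was the lower group. The chromosome XIV origin at 635951, within SWM2 and about 6.86 kb from the centromere, had 0.32, 0.37, 0.38 and 0.37 in dbf4-Zn* and 3.88 and 2.45 in the triple mutant (-3.17, SE 0.17), with 9.74 in WT and 0.37 in ctf19∆. The chromosome XV origin at 308651, within the rRNA processing gene RCL1, had 0.50, 0.55, 0.49 and 0.61 against 1.94 and 2.12 (-1.94, SE 0.18), with 4.94 in WT. A few CEN-proximal origins were strong in both groups, such as that at 254351 of chromosome II with means of 17.2 and 17.9 (log2 fold change -0.06, adjusted p = 0.49). The other origin of that centromere, at 237001 and about 1.18 kb away, had 16.5 and 13.5 (0.29, adjusted p = 0.0028). In ctf19∆ these had 12.9 and 2.39.

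The 12 CEN-proximal origins higher and the 11 lower in dbf4-Zn* had median WT signals of 15.7 and 15.6, median distances to the centromere of 9.62 and 13.2 kb, and median ctf19∆ signals of 2.38 and 1.82. Within 10 kb of a centromere lay 15 of the 32, of which 6 were higher and 2 lower.

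A measure without peak calls gave centromere regions more signal in dbf4-Zn*. Windows within 20 kb of a centromere held 12.0%, 11.9%, 11.7% and 11.8% of the IP signal in dbf4-Zn* and 8.19% and 8.06% in the triple mutant. The groups did not overlap (exact permutation p = 0.067, adjusted p = 0.086). Within the first 5 kb the mean window had 2.08 ± 0.06 (SD, n = 4) in dbf4-Zn* and 1.27 ± 0.03 (SD, n = 2) in the triple mutant, against 2.64 in WT, 0.574 in ctf19∆ and 5.10 in fkh1∆ fkh2-dsm. The triple mutant lay between ctf19∆ and dbf4-Zn*. The excess of dbf4-Zn* was not limited to centromeres, since at 50 to 55 kb the means were 1.92 and 0.88.

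**Figure D4:**
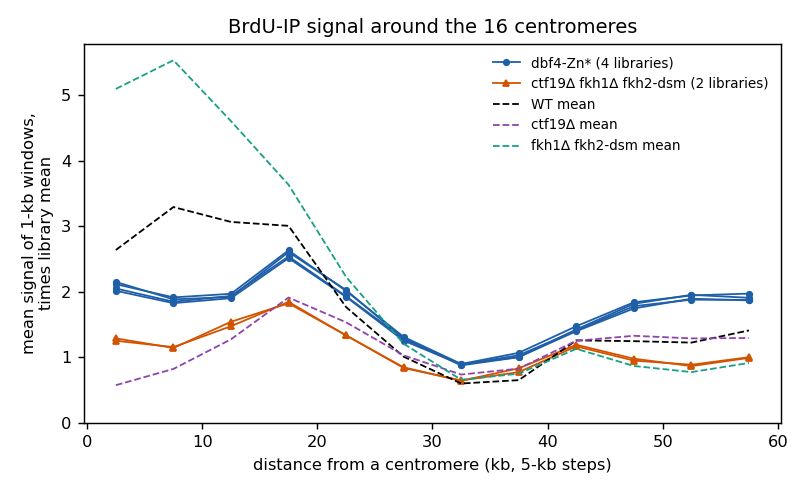
Mean BrdU-IP signal of 1-kb windows (times the library mean) against distance from the nearest of the 16 centromeres in 5-kb steps, with 1 solid line per library of dbf4-Zn* and ctf19∆ fkh1∆ fkh2-dsm and dashed lines for strain means of WT, ctf19∆ and fkh1∆ fkh2-dsm. All 4 dbf4-Zn* lines lie above both triple-mutant lines at each distance, at 2.08 against 1.27 in the first step.

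Across 11939 windows of 1 kb, edgeR called 1594 (13.4%) higher in dbf4-Zn* and 4369 (36.6%) lower. The median window had a log2 fold change of -0.62. After TMM scaling the median was 0.01 and the counts were 2493 and 2265, and DESeq2 gave 2555 and 2410, so the excess of lower windows is not seen on these scales. With Total library sizes it was larger, with a median of -1.49 and counts of 1 and 481. The median window had 0.24, 0.27, 0.26 and 0.30 times the library mean in dbf4-Zn* and 0.48 and 0.47 in the triple mutant. Over 20 kb from any origin peak, where 56.5% of the windows lie, the mean signal was 0.27 in dbf4-Zn*, 0.61 in the triple mutant and 0.34 in WT. There 86 windows were higher and 2967 lower, and 279 and 1539 after TMM scaling. Within 5 kb of a peak, 721 of 1546 windows were higher and 483 lower, and the means were 4.21 and 3.07.

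Runs of called windows, joined over gaps of up to 1 window, showed where whole domains differed. The longest in favour of dbf4-Zn* covered 68 kb of chromosome III from 21001 and includes the stretch without counts. The next was 64 kb of chromosome VI from 151001, with a mean signal of 5.96, 5.78, 5.57 and 5.55 in dbf4-Zn* and 1.72 and 1.74 in the triple mutant. It holds the origin at 199601 named above and a CEN-proximal origin at 167401, which had 13.8 and 12.0 itself. The run after it covered 41 kb of chromosome V from 74001, around the Fkh-dependent origin at 94201, with means of 5.07 and 1.41.

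In the opposite direction the longest run covered 51 kb of chromosome VII from 961001 and holds none of the 163 origins. Its mean was 0.20, 0.23, 0.23 and 0.25 in dbf4-Zn* and 1.68 and 1.78 in the triple mutant. The lowest log2 fold change there was -5.25 in the window from 976001. The second, 45 kb of chromosome XV from 845001, also without an origin, had means of 0.31 and 0.92. The third, 44 kb of chromosome IV from 199001, surrounds the origin beside RGT2, with 0.21 and 2.29. The first and the third of these domains were above the genome mean in the triple mutant and well under it in dbf4-Zn*. Of 832 runs lower in dbf4-Zn*, 59 held one of the 163 origins, as did 73 of the 186 runs in the other direction.

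Whole chromosomes differed as well. The mean signal of chromosome III was 2.50, 2.39, 2.40 and 2.33 in dbf4-Zn* and 1.20 and 1.22 in the triple mutant. Chromosome VI had 1.72, 1.71, 1.67 and 1.67 against 0.88 and 0.85, and chromosome X 1.53, 1.54, 1.45 and 1.48 against 0.82 and 0.83. At the other end, chromosome XVI had 0.56, 0.57, 0.57 and 0.59 against 0.91 and 0.89, and chromosome XI 0.64 against 0.99 in the group means. Among the 16 chromosomes, XII had overlapping groups.

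**Figure D5:**
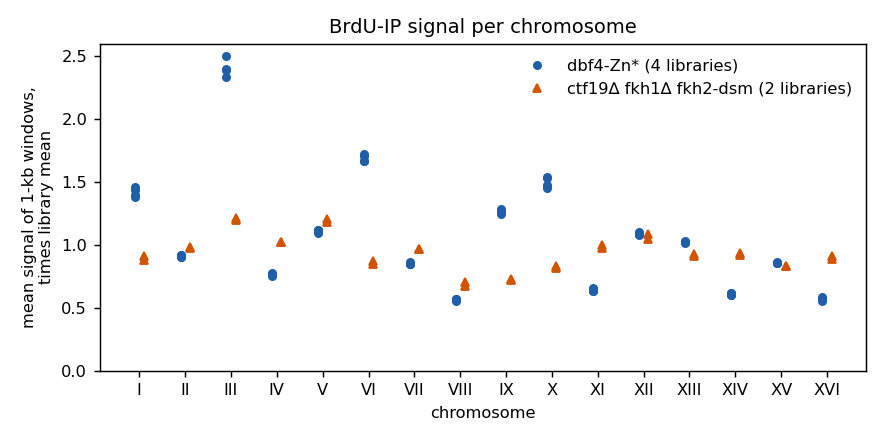
Mean BrdU-IP signal of the tested 1-kb windows of each chromosome (times the library mean), with 1 point per library, blue circles for dbf4-Zn* and orange triangles for ctf19∆ fkh1∆ fkh2-dsm. The dbf4-Zn* libraries range from a mean of 0.57 on chromosomes VIII and XVI to 2.41 on chromosome III, the triple mutant from 0.69 on chromosome VIII to 1.21 on chromosome III.

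The dbf4-Zn* signal was concentrated on stronger and wider peaks. The 30 highest origins held 49.1%, 49.7%, 47.9% and 48.3% of origin signal in dbf4-Zn* and 41.8% and 41.9% in the triple mutant. Origins with at least 10 times the mean averaged 35 and 18.5 per library, those with at least 5 times 70.5 and 72.5, and those with at least 3 times 104 and 95. These counts leave out unlisted sites, such as any in the longest run lower in dbf4-Zn*, so they are not totals of active origins. The median width of the 30 highest peaks, at 50% of their height, was 9425, 8400, 8600 and 8450 bp in dbf4-Zn* and 4925 and 5450 bp in the triple mutant. Neither the share nor the width overlapped between groups (exact permutation p = 0.067 for each, adjusted p = 0.086). With all libraries thinned to the depth of the shallowest, the mean widths were 8456 and 5175 bp. Without smoothing they were 2669 and 575 bp (exact permutation p = 0.13).

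The alleles gave similar counts. Both were set against the same triple-mutant libraries, so their counts are not independent. Against the triple mutant, dbf4-Zn*1 had 84 origins higher (51.5%) and 57 lower (35%), while dbf4-Zn*2 had 82 higher (50.3%) and 57 lower (35%). Between dbf4-Zn*1 and dbf4-Zn*2 edgeR called 0 of 163 origins (2 had an unadjusted p below 0.05), and the largest log2 fold change was 0.37. That no origin passed the test does not show that the alleles are equal.

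Total libraries gave no counts to the IP test, but a window could be called only if its Total lay between 0.5 and 2 times the mean in both groups, which bounds the Total difference. Within this bound, and averaged over the called windows, it had the same direction and was small. In windows called higher in dbf4-Zn* the mean Total signal was 1.04, 1.05, 1.01 and 1.04 in dbf4-Zn* and 0.94 and 0.95 in the triple mutant, and in windows called lower it was 0.85, 0.86, 0.85 and 0.85 against 0.91 and 0.91 (exact permutation p = 0.067 for each, adjusted p = 0.086). In Total, edgeR called 31 of the 163 origins higher (19%) and 14 lower (8.59%). Of the 84 origins higher in the IP, it called 29 higher and 1 lower in Total, and of the 59 lower in the IP it called 0 higher and 13 lower, with 8 of the 59 above 0 in log2 fold change. At single lower origins the Total difference varied. The chromosome IV origin at 505651 had a Total of 0.79 in dbf4-Zn* and 1.52 in the triple mutant, and the chromosome XI origin at 213051 had 0.84 and 0.85.

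Gene loci were looked up from lists chosen with earlier results of these data known. The 8 core histone genes, which are expressed in S phase, lie in windows of which 4 were called higher in dbf4-Zn* and 0 lower, against 13.4% and 36.6% of all windows. Since 6 of the 8 lie within 5 kb of an origin peak, the nearer background is the windows at that distance, of which 46.6% were higher and 31.2% lower, so the share of higher calls is near that of such windows. All 8 were higher after TMM scaling or with DESeq2, and under TMM 60.7% of the windows within 5 kb of a peak were higher. With Total library sizes 1 of the 8 had a positive log2 fold change and 0 were called. HTA2, an H2A gene beside the chromosome II origin nearest its centromere, had 13.1, 14.7, 12.4 and 12.5 in dbf4-Zn* and 8.76 and 9.02 in the triple mutant (0.56, SE 0.12). Of the 8 CLB2-cluster genes, mitotic genes whose transcription is controlled by Fkh2, 3 were higher (CLB2, CDC5 and BUD4) and 2 lower (SWI5 and CDC20). Of all windows, 13.4% were higher and 36.6% lower. After TMM scaling, 4 were higher and 0 lower, against 20.9% and 19.0% of all windows. With Total library sizes 2 had a positive log2 fold change and 0 were called. Of the 8, 2 lie within 5 kb of an origin peak. No conclusion is drawn from so few loci.

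Among the genes of the factors studied, DBF4 had 9.89, 9.47, 8.65 and 8.84 in dbf4-Zn* and 2.87 and 2.71 in the triple mutant (1.72, SE 0.14), with 2.33 in WT. It lies about 4.62 kb from a Fkh-dependent origin that was also higher (0.89). FKH2 had 0.12, 0.26, 0.25 and 0.30 in dbf4-Zn* and 2.90 and 2.84 in the triple mutant (-3.70, SE 0.27), with 0.29 in WT, and its nearest origin among the 163 is 48.8 kb away. MCM2 was lower in dbf4-Zn* (-2.27, SE 0.32), and CDC7 did not pass the test (-0.14, adjusted p = 0.75). FKH1 and CTF19 are deleted in the triple mutant and were not tested. FKH2 is altered in the triple mutant (fkh2-dsm) and DBF4 in dbf4-Zn*. Whether these changes affect the counts at the 2 loci was not tested.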

How the data were processed

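The authors deposited whole-number counts of reads overlapping 50-bp bins. The submitters' processing notes name Bowtie2, SAMtools and bedtools without versions, and the genome build is not given in the sources used here. Groups follow the genotype in the labels. Libraries, lists and tests were chosen with earlier results of these data known. Peaks were bins of the mean IP profile, after 1-kb median smoothing, at 2 or more times the mean and the highest within 5 kb. Peaks at the rDNA (3) or without a full window at an end (6) were left out of 172. Centromeres were placed in the gap between flanking genes of the R64 table. Windows of 1 kb needed a Total of 0.5 to 2 times the mean in both groups and 10 counts in 2 IP libraries. The 20 IP libraries were fitted together in edgeR 4.0.16 with strain as factor and the sum over bins as library size. The fit was also run on simulated counts with far fewer changed windows than were called here, in balanced directions. That run does not cover the setting of this comparison. DESeq2 1.42.0 was an alternative. Per-library values were compared by exact permutation. Limits from a count of 0 (3 counts) cover counting error only.

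Named sites were the 10 highest and 10 lowest called origins whose groups did not overlap, the 3 highest and 3 lowest CEN-proximal and Fkh-dependent origins, the 3 longest runs per direction and the gene lists. Other sites were named after their values were seen. ChIP-seq files of the series were not used. R was 4.3.3 and Python 3.11.15.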

Additional observations from a re-analysis of the deposited data

Results flagged for a closer look

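Among 35 values with 4 dbf4-Zn* libraries each (2 of each allele), 5 had a library whose gap to its neighbour was large relative to the range, and chance gives about 1 in 20. The first dbf4-Zn*1 library was the low one at the chromosome XIV origin within SWM2 (0.324), and the second had 69 origins at 5 or more times the mean where the other 3 had 71. The first dbf4-Zn*2 library was low at the chromosome XIII origin within RCE1 (15.9). The second dbf4-Zn*2 library was high at the chromosome XI origins beside TOA2 (1.89) and SRP21 (0.925).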

How the results depend on the processing

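The 26 named origins kept their direction in all 364 refits, and 349 kept their side of the threshold. The refits reuse the libraries from which these origins were named for extreme fold changes, so kept directions are partly a result of the choice. The 15 exceptions were all with the library size of the matched Total. That setting left 1 window higher and 481 lower, 0 origins higher and 15 lower, and 0 higher and 2 lower for each allele. With TMM over windows, 35 origins were lower (34 for dbf4-Zn*1, 35 for dbf4-Zn*2), and windows numbered 2493 and 2265 (DESeq2 2555 and 2410). The cause was not tested. The CEN-proximal difference of -0.02 turned to 0.017 with peaks of 14 libraries, 0.19 for origins within 20 kb of a centromere, 0.00094 with a pseudocount of 0.5 and 0.030 without chromosome III, an alternative chosen after seeing the data, and ranged from -0.023 to 0.0018 when each library was left out. The difference in the ratio of medians, -0.20, turned to 0.0198 after division by Total and 0.0697 with the limit of -0.5. The difference in origins with at least 5 times the mean, -2, was 8.75 at 3 times and 16.5 at 10 times, and ranged from -4.5 to 0.5 when each library was left out. Leaving out each library gave 78 to 84 origins higher and 53 to 60 lower, and 1451 to 1570 windows higher and 3417 to 4304 lower. With 1 triple-mutant library left, it was assumed to vary like the other strains.

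The labels share replicate numbers, but same-numbered deviations correlated at 0.18, -0.04 and -0.05 and nothing pairs the cultures. With a replicate block, 84 origins were higher and 58 lower (83 and 57 for dbf4-Zn*1, 81 and 57 for dbf4-Zn*2), and 1591 windows higher and 4330 lower.

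Library depth limits the triple mutant most, whose shallower IP library had 51.0 counts per mean 1-kb window against 124 to 512 in dbf4-Zn*.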
